A study of Mus musculus with 9 samples.

Results

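The BCL2 family genes described here were the 10 members Bcl2, Bcl2l1, Mcl1, Bax, Bak1, Bcl2l11, Bbc3, Bid, Bmf and Bcl2l14, found by gene symbol among the 29288 genes of a bulk RNA sequencing count table. All 10 were found and all 10 were among the 18933 genes with enough counts to be tested. The RNA came from live intestinal epithelial cells (IECs) of the crypts of the proximal small intestine, sorted as EpCAM+ CD45- CD31- Ter119- cells from 9 female WT C57BL/6J mice. The 3 control mice were injected with PBS and sampled at 18 h. The 3 18h-αGal mice and the 3 72h-αGal mice received 2 µg of α-galactosylceramide (αGalCer) into the peritoneum, a lipid antigen that activates NKT cells, and were sampled at 18 h and 72 h. Each library came from 1 mouse, and the labels gave no ages. The sort kept live cells only, so cells that had already died did not enter any library. No PBS mice were sampled at 72 h, so in 72h-αGal against control the treatment and the time of sampling cannot be told apart.

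The BCL2 family decides whether the mitochondrial outer membrane of a cell stays closed. The effectors BAX and BAK form pores in that membrane, which release cytochrome c and start the caspases. Anti-apoptotic members such as BCL2, BCL-XL and MCL1 bind and hold the effectors, and the small BH3-only members such as BIM, PUMA, BID and BMF occupy the anti-apoptotic members or engage the effectors directly. In the intestinal crypt this balance is known for setting how readily dividing cells die after damage, and MCL1 and BCL-XL are known to protect the intestinal epithelium. Much of the control of these proteins is by cleavage, binding and degradation, which an mRNA level does not show.

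The libraries held between 8887861 and 32722293 counts, and control replicate 3 was the smallest. Epcam, which the sort selected, had between 8895 and 32257 raw counts per library, while Ptprc (CD45) and Pecam1 (CD31), which it excluded, had between 6 and 50 and between 14 and 53. The summed level of 7 epithelial markers was 4279 to 5223 CPM (the count relative to the library total), against 0.330 to 5.10 CPM for 5 measured T and NK cell markers and 15.4 to 47.7 CPM for 6 myeloid markers. The myeloid sum was 15.4 to 26.3 CPM in controls, 18.9 to 33.2 CPM at 18 h and 32.1 to 47.7 CPM at 72 h. Thus the controls and the 72h-αGal mice did not overlap. Cd68, the largest part of that sum, was not called at 72 h against control (edgeR, adjusted p = 0.810). Within the epithelium, the sum of 5 stem cell markers (Lgr5, Olfm4, Ascl2, Smoc2 and Axin2) was 1496 to 3195 CPM in controls, 395 to 1520 CPM at 18 h and 1978 to 3409 CPM at 72 h. None of the 5 was called in edgeR's test of 18h-αGal against control, and their median log2 fold change was -1.21. In that test 1 of the 5 had an unadjusted p under 0.05, as did 3947 of all 18933 genes tested. From 18 h to 72 h 1 of the 5 was called, Axin2, which rose by 1.64 ± 0.34 on the log2 scale (edgeR, adjusted p = 0.0218). The sum of 5 enterocyte markers was 3467 to 6911 CPM in controls, 4553 to 7294 CPM at 18 h and 2200 to 3816 CPM at 72 h. In this sum the mice of the 2 times after αGalCer did not overlap. Singly, 1 of the 5 markers (Sis) did not overlap between these times, against 32.8% of all genes tested. Of the 5, Sis came nearest to the threshold between the times and did not pass the test (log2 fold change -1.06 ± 0.30, unadjusted p = 0.00757, adjusted p = 0.0641, edgeR). In bulk samples, fewer cells of a type and less RNA per cell cannot be told apart. The part of these markers in the results on the BCL2 family was not tested.

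Levels were first compared between the members, as CPM per kilobase of exons, because raw counts grow with gene length. Bak1, which encodes the effector BAK that sits in the mitochondrial membrane, and Mcl1, which encodes a short-lived anti-apoptotic protein, had the highest means of the 10 members in control crypt IECs. The level of Bak1 was 28.6 ± 4.05 (SD, n = 3) CPM per kilobase and that of Mcl1 was 28.5 ± 1.36. Their ranges over the 3 control mice overlapped, so their order was not resolved, and both lay above those of the other 8 members. Bcl2l14 (9.77 ± 1.11) and Bcl2l1 (7.38 ± 1.12) followed, with ranges that overlapped by a small margin. Bcl2l11 (4.50 ± 0.183) and Bax (4.08 ± 0.263) came next, again with overlapping ranges. Bbc3 (2.01 ± 0.148), Bid (1.66 ± 0.340), Bmf (1.58 ± 0.645) and Bcl2 (1.25 ± 0.305) formed the lowest group, in which each neighbour overlapped the next. The founding member Bcl2 had the lowest mean of the 10, and its range lay below those of Bcl2l1 and Mcl1, the anti-apoptotic members beside it in this set. When the length of the canonical transcript replaced that of all annotated exons, an alternative added after the data were seen, Bid (7.40 CPM per kilobase) moved from rank 8 to rank 7 and Bbc3 (3.59) from rank 7 to rank 8, while the other 8 ranks did not move. The overlaps did change with the length used: on this scale Bcl2l14 stood at 19.8 and no longer overlapped Bcl2l1, Bcl2l11 stood at 9.02 and no longer overlapped Bax, and Bid overlapped Bax but not Bbc3, which did not overlap Bmf.

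**Figure D1:**
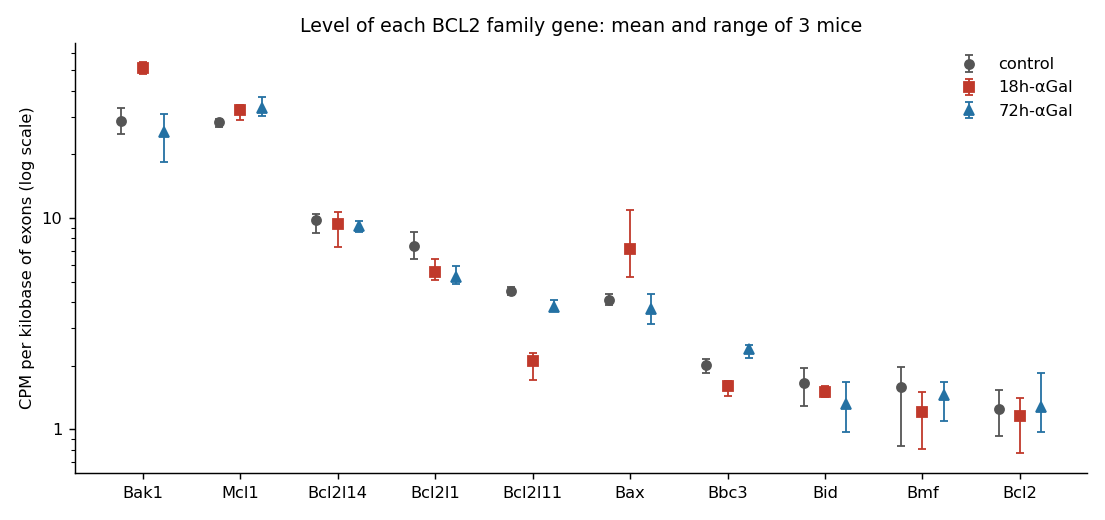
Level of each BCL2 family gene as CPM per kilobase of exons on a log axis, ordered by the control mean. Symbols are means of 3 mice (grey circles, control; red squares, 18h-αGal; blue triangles, 72h-αGal), and bars run from the lowest to the highest mouse. Bak1 and Mcl1 lie near 28.6 and 28.5 in controls, and at 18 h the Bcl2l11 symbol drops to 2.09 while that of Bak1 stands at 51.1.

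How the family responded soon after NKT cell activation was asked by setting 18h-αGal against control. Bcl2l11, which encodes the BH3-only protein BIM, fell by 1.08 ± 0.17 (SE) on the log2 scale, to 0.474 of its control level (edgeR quasi-likelihood test, adjusted p = 0.00191). Bak1 rose by 0.86 ± 0.18, which is 1.81-fold (adjusted p = 0.0142). These 2 changes went in opposite directions for 2 pro-apoptotic genes, 1 of them an effector and the other a BH3-only gene. None of the 3 anti-apoptotic members passed the test. Thus 1 of 10 members was called higher and 1 lower, where 3.27% of all genes tested were called higher and 2.69% lower (5.96% in all). The values of the 2 groups of mice did not overlap for 4 members (Bax, Bak1, Bcl2l11 and Bbc3), against 23.8% of all genes tested. The median log2 fold change of the 10 members was -0.10, beside -0.03 over all genes tested.

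By 72 h none of the 10 members was called against control in edgeR's test, and DESeq2 called 0 as well, where edgeR called 0.0264% of all genes. The unadjusted p was under 0.05 for 1 member, Bcl2l1, as it was for 1125 of all 18933 genes tested. The groups did not overlap for 2 members (Bcl2l1 and Bcl2l11, both with the lower values at 72 h), against 12.7% of all genes, and the median log2 fold change of the members was -0.17. The direct comparison of the 2 times after αGalCer, which does not use the controls as a reference, called 3 members. Bak1 fell by 1.08 ± 0.19 on the log2 scale from 18 h to 72 h (adjusted p = 0.00274), Bax fell by 1.01 ± 0.30 (adjusted p = 0.0464) and Bcl2l11 rose by 0.78 ± 0.17 (adjusted p = 0.00849). Of all genes 10.2% were called in this comparison, 4.18% higher and 6.04% lower at 72 h. The groups did not overlap for 4 members (Bax, Bak1, Bcl2l11 and Bbc3), against 32.8% of all genes. The comparisons share libraries with each other, so they are not independent views of the same genes.

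**Figure D2:**
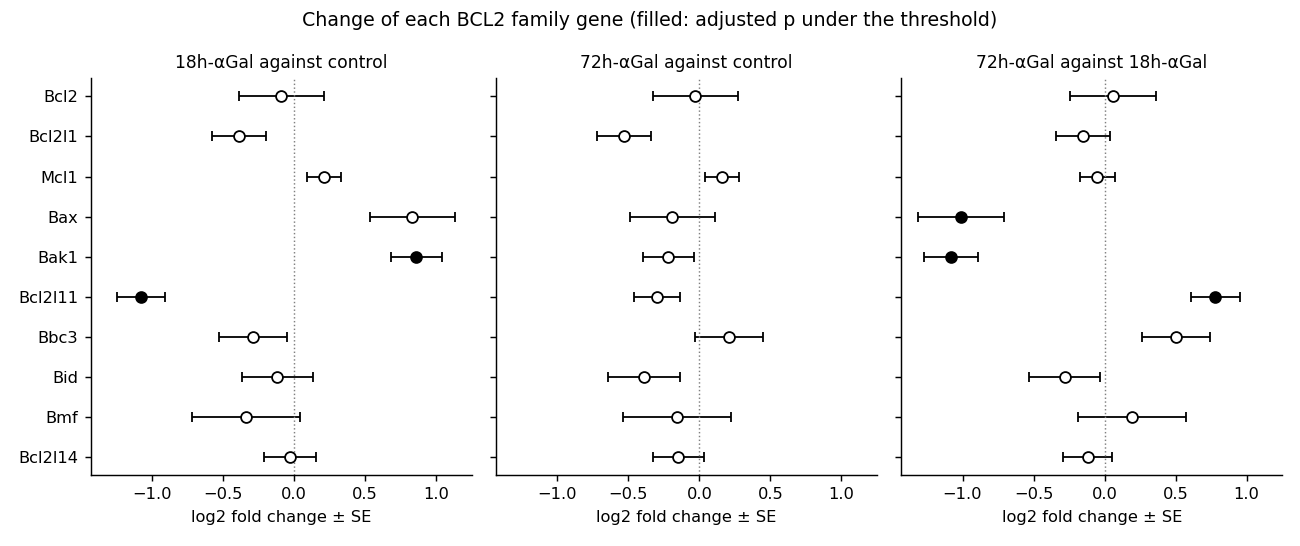
Log2 fold change of each BCL2 family gene with its SE (horizontal bar) in the 3 comparisons, from the fit over all 9 libraries. Filled points passed an adjusted p of 0.05 in edgeR's test: Bcl2l11 (-1.08) and Bak1 (0.86) at 18 h, no member at 72 h against control, and Bax (-1.01), Bak1 (-1.08) and Bcl2l11 (0.78) between the times.

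Among the anti-apoptotic members, Mcl1 was measured with the smallest SE. Its normalised count (the count divided by the size factor of its library) was 1965, 1872 and 1985 in control replicates 1, 2 and 3, 1959, 2302 and 2435 at 18 h, and 2467, 2051 and 1932 at 72 h. The groups overlapped, and the change at 18 h was 0.21 ± 0.12 on the log2 scale (adjusted p = 0.366), with a range of 2 SE to either side from -0.04 to 0.45.

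Bcl2l1, which encodes BCL-XL, had normalised counts of 634, 669 and 934 in controls, 506, 514 and 676 at 18 h, and 474, 588 and 460 at 72 h. The 72h-αGal mice were all below the lowest control, while at 18 h replicate 3 lay within the control values. The log2 fold change against control was -0.39 ± 0.19 at 18 h (adjusted p = 0.263) and -0.53 ± 0.19 at 72 h (unadjusted p = 0.0134, adjusted p = 0.810, edgeR), so neither passed the test. Control replicate 3, the smallest library, held the highest value. Without it, the change at 18 h was -0.21 and that at 72 h was -0.35.

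Bcl2 had normalised counts of 227, 259 and 181 in controls, 228, 252 and 146 at 18 h, and 173, 174 and 302 at 72 h. The spread within each group was larger than any difference between groups, and the log2 fold change was -0.09 ± 0.30 at 18 h (adjusted p = 0.912) and -0.03 ± 0.30 at 72 h (adjusted p = 0.999). With 76 to 411 raw counts per library, a change of Bcl2 at 18 h between -0.68 and 0.51 on the log2 scale lay within 2 SE.

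Of the effectors, Bak1 rose at 18 h and Bax did not pass the test there. Bak1 (chr17:27238784-27247983, minus strand, GRCm39) had normalised counts of 1526, 1102 and 1422 in controls, 2547, 2234 and 2521 at 18 h, and 1411, 1254 and 787 at 72 h. Each 18h-αGal mouse was above each control and each 72h-αGal mouse, and at 72 h replicates 1 and 2 lay within the control values and replicate 3 below them. The group means were 1350 ± 221 (SD, n = 3), 2434 ± 174 and 1150 ± 325. Against control at 72 h the log2 fold change was -0.22 ± 0.18 (adjusted p = 0.913). The call at 18 h was lost without control replicate 2, the control with the lowest value, where the log2 fold change was 0.73 (edgeR, adjusted p = 0.0548).

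Bax (chr7:45111015-45116325, minus strand, GRCm39) encodes the second pore-forming effector, which rests in the cytosol until it is activated. Its normalised count was 156, 136 and 152 in controls, 191, 393 and 200 at 18 h, and 129, 113 and 144 at 72 h. All 3 18h-αGal mice were above the controls, but replicate 2 stood far above replicates 1 and 3. The log2 fold change at 18 h was 0.83 ± 0.30 with an unadjusted p of 0.0156 and an adjusted p of 0.126, so Bax was not called against control. Without 18h-αGal replicate 2 the change at 18 h was 0.41, and the fall from 18 h to 72 h was -0.59 with an adjusted p of 0.282 in place of the called -1.01. That call was lost under 8 of 14 alternative fits, among them those without control replicate 1 or 2 and without any 1 of the 72h-αGal mice (adjusted p = 0.0506 to 0.149). The change at 72 h against control was -0.19 ± 0.30 (adjusted p = 0.971).

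**Figure D3:**
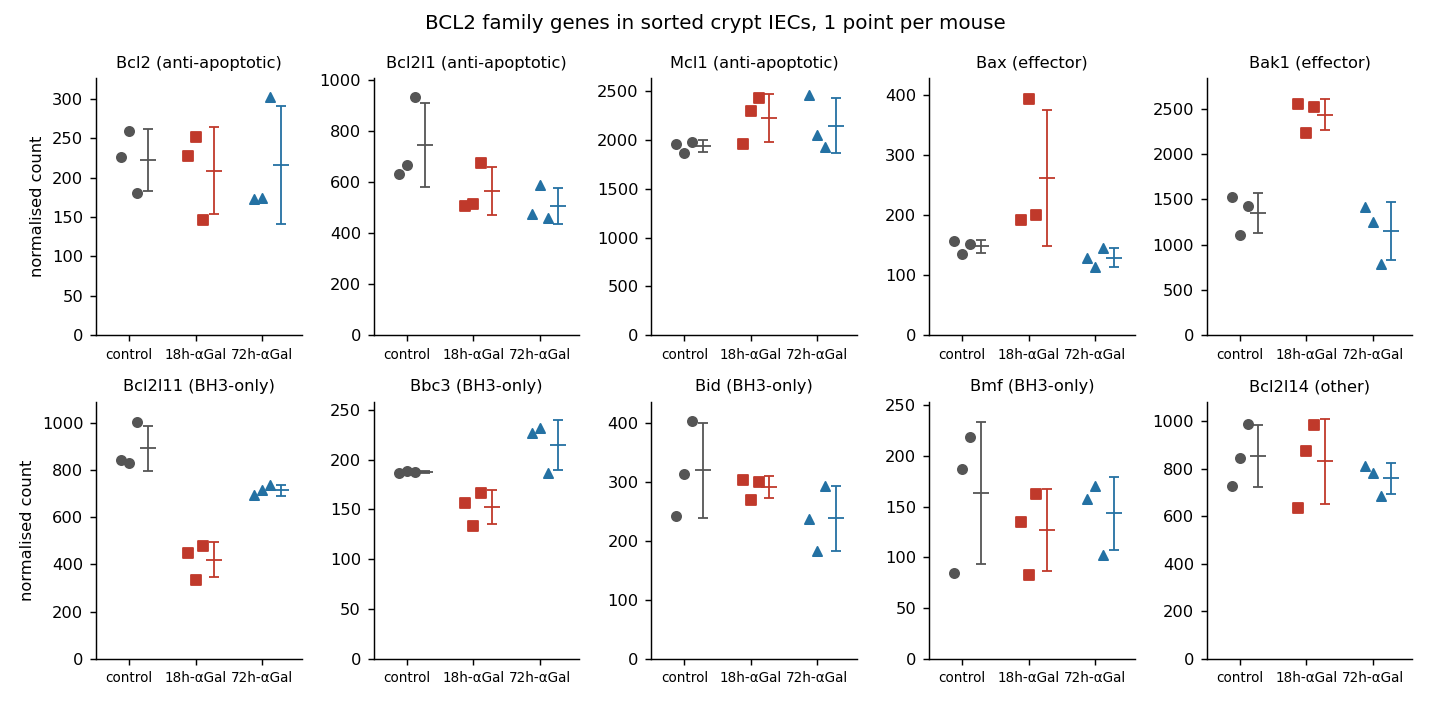
Normalised count of each BCL2 family gene in each mouse on linear axes from 0, with replicates 1 to 3 from left to right in each group, and the mean ± SD of 3 mice beside the points. The 3 18h-αGal mice lie above all other mice for Bak1 (2234 to 2547) and below all other mice for Bcl2l11 (335 to 477), and a single 18h-αGal mouse at 393 sets the Bax mean.

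Bcl2l11 (chr2:127967958-128004476, plus strand, GRCm39) encodes BIM, the BH3-only protein that binds each anti-apoptotic member and is held on the dynein motor in healthy cells. It had normalised counts of 842, 831 and 1003 in controls, 448, 335 and 477 at 18 h, and 693, 714 and 737 at 72 h. The 3 groups did not overlap: each 18h-αGal mouse was below each 72h-αGal mouse, and each of those was below each control. The means were 892 ± 96.7 (SD, n = 3), 420 ± 75.1 and 715 ± 22.3. At 72 h the difference from control was -0.30 ± 0.16 on the log2 scale and did not pass the test (adjusted p = 0.870). The calls of Bcl2l11 at 18 h and between the times held under all 14 alternative fits, with log2 fold changes of -1.17 to -0.94 and 0.64 to 0.87.

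None of the other 3 BH3-only members, Bbc3, Bid and Bmf, passed edgeR's test in any comparison (lowest unadjusted p 0.0528). Bbc3, which encodes PUMA, a target of p53, had normalised counts of 186, 189 and 188 in controls, 157, 134 and 167 at 18 h, and 227, 232 and 186 at 72 h. The 18h-αGal mice lay below all other mice, and the log2 fold change was -0.29 ± 0.24 at 18 h (adjusted p = 0.546) and 0.50 ± 0.24 from 18 h to 72 h (adjusted p = 0.212). Neither passed the test.

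Bid encodes a protein that caspase-8 cleaves, which ties death receptors on the cell surface to the mitochondrion. Its normalised count was 243, 314 and 404 in controls, 305, 270 and 301 at 18 h, and 238, 184 and 294 at 72 h. The control mice alone spanned most of the range of all groups. The log2 fold changes were -0.12 ± 0.25 at 18 h (adjusted p = 0.848) and -0.39 ± 0.25 at 72 h (adjusted p = 0.885). Bid shared 3059 bases of exons with Bcl2l13 on the other strand, a gene with 1082 to 1331 normalised counts, and the strand setting of the counting was not stated, so reads of the 2 genes may have been exchanged.

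Bmf, whose protein binds dynein light chain 2, varied widely between mice of a group, with 84.6, 187 and 219 normalised counts in controls, 135, 82.6 and 163 at 18 h, and 158, 170 and 102 at 72 h. All groups overlapped, and the log2 fold change at 18 h was -0.34 ± 0.38 (adjusted p = 0.674). Bcl2l14, which encodes BCL-G, had 728, 845 and 989 in controls, 634, 878 and 984 at 18 h, and 812, 784 and 686 at 72 h. It ranked 3 in level per kilobase, its groups overlapped, and it had a log2 fold change of -0.03 ± 0.18 at 18 h (adjusted p = 0.952) and a range of 2 SE from -0.38 to 0.32.

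The DNA upstream of the start sites was read from RefSeq windows of build GRCm38.p6 that run from 250 bases before to 50 bases after a start. All 10 members matched, with 18 windows between them. The letters GAAANNGAA (the core of the ISRE, an interferon response element) were searched on both strands and were in 0 of the 18 windows, where 8.56% of all 32851 windows held them. This says only that these letters are not in these windows. The GC box GGGCGG, bound by SP1 and chosen after the windows were seen, was in 10 of the 18 windows and at 7 of the 10 members (Bcl2, Mcl1, Bax, Bcl2l11, Bbc3, Bid and Bmf), against 35.7% of all windows. A pair of these stretches is shown because their genes were called in opposite directions between 18 h and 72 h, up to the first base that any annotated transcript covers. The Bcl2l11 stretch is chr2:128125788-128126037 on the plus strand and the Bax stretch is chr7:45466902-45467148 on the minus strand, and capitals mark GC boxes on either strand:
Bcl2l11: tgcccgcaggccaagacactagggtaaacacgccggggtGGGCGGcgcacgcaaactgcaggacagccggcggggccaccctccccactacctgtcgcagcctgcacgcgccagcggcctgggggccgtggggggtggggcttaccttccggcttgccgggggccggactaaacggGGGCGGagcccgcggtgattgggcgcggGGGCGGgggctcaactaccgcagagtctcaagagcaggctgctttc
Bax: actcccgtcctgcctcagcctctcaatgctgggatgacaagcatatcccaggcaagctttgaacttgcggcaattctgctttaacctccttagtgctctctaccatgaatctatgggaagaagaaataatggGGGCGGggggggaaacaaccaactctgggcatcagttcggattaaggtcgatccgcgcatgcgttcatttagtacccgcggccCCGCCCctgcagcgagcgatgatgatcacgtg
The Bcl2l11 stretch shown was 72.0% G or C, with 3 GC boxes and 24 CG dinucleotides in 250 bases. A second Bcl2l11 stretch, chr2:128127325-128127524, is not shown. It was 69.5% G or C, with 2 GC boxes and 21 CG dinucleotides in 200 bases. The Bax stretch was 54.3% G or C, with 2 GC boxes and 14 CG dinucleotides in 247 bases. The Bak1 window lay within an annotated Bak1 transcript and held no GC box.

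Ratios of raw counts within a library do not depend on its depth, and 6 of them were computed between pro-apoptotic members and a second member. The pairs were picked with the values in view and are given as a description with no test. The ratio of Bak1 to Bcl2l11 was 1.81, 1.33 and 1.42 in controls, 5.69, 6.67 and 5.28 at 18 h, and 2.04, 1.76 and 1.07 at 72 h. All 3 mice at 18 h were above all others, and the 72 h values spanned those of the controls. The ratio of Bak1 to Mcl1 was 0.694 ± 0.0961 (SD, n = 3) in controls, 1.10 ± 0.175 at 18 h and 0.530 ± 0.108 at 72 h. The ratio of Bax to Mcl1 was 0.0762 ± 0.00352, 0.117 ± 0.0472 and 0.0606 ± 0.0123 in the same order, and that of Bcl2l11 to Mcl1 was 0.459 ± 0.0408, 0.190 ± 0.0418 and 0.337 ± 0.0514. At 18 h the 3 mice did not overlap the controls for any of the 6 ratios. Each ratio was of Bak1, Bax or Bcl2l11 to another member, and these genes alone did not overlap the controls at 18 h either. The ratios therefore repeat those results, and the share over other pairs of genes was not computed. At 72 h only the ratio of Bcl2l11 to Mcl1, of the 6, did not overlap the controls, as Bcl2l11 alone did not.

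**Figure D4:**
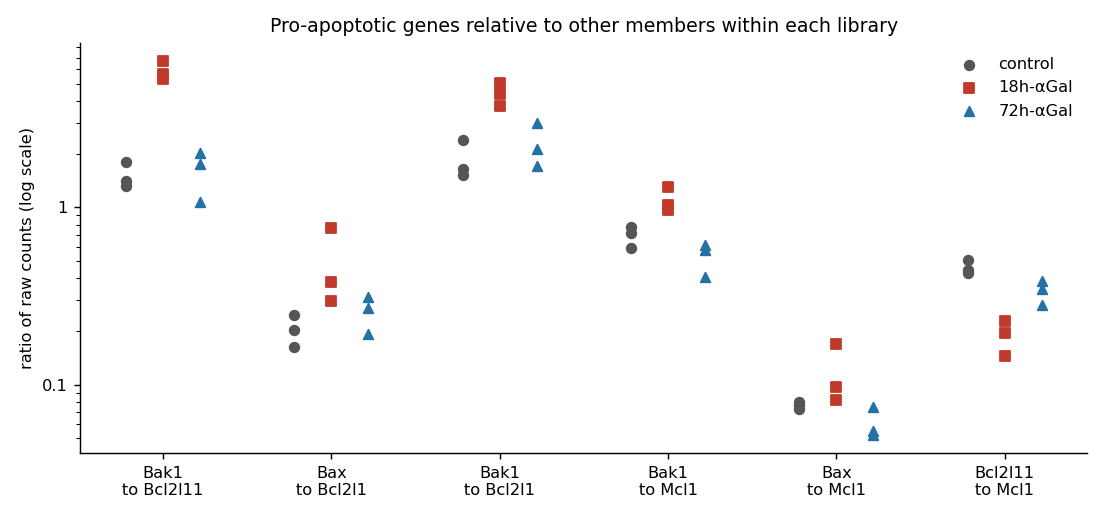
Ratio of raw counts of 2 BCL2 family genes within each library on a log axis, 1 symbol per mouse (grey circles, control; red squares, 18h-αGal; blue triangles, 72h-αGal). The 3 18h-αGal mice lie at 5.28 to 6.67 for Bak1 to Bcl2l11 and the controls at 1.33 to 1.81.

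Around the members, 15 other genes of the BCL2 family were listed, of which 10 could be tested. None was called at 18 h against control by edgeR, 3 had an unadjusted p under 0.05 (Bcl2l15, Pmaip1 and Bnip3l), as did 3947 of all 18933 genes tested, and DESeq2 called 1. The gene that DESeq2 called and that lay nearest to the threshold in edgeR was Bcl2l15, with normalised counts of 62.8, 95.9 and 166 in controls, 250, 226 and 310 at 18 h, and 82.2, 148 and 71.4 at 72 h. Its 18h-αGal mice were above all other mice, with a log2 fold change of 1.32 ± 0.38 (adjusted p = 0.0510) against control and -1.38 ± 0.37 (adjusted p = 0.0291) from 18 h to 72 h. It shared 12.1% of its sequence words of 50 bases with other genes, most of them with the overlapping Gm43064, so its level is uncertain. Against control it was called under 5 of 14 alternative fits, and between the times under 9, where any 18h-αGal mouse or 72h-αGal replicate 1 or 3 left out ended the call. Pmaip1, which encodes the BH3-only protein NOXA, had the highest level per kilobase of these genes in controls (32.1 ± 5.08 CPM per kilobase) and did not pass the test at 18 h (-0.43 ± 0.17, adjusted p = 0.169). Bcl2l10 and Hrk did not pass the filter on low counts, with raw counts of 0 to 12 and 0 to 10 per library. The near-identical genes Bcl2a1a, Bcl2a1b and Bcl2a1d were looked up but were not found in the count table, so they could not be tested.

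Downstream of the effectors, 12 genes of the mitochondrial pathway were all tested, and 1 rose at 18 h while none fell, where 3.27% of all genes tested were called higher and 2.69% lower. It was Cycs, which encodes the cytochrome c that leaves through the effector pores, with normalised counts of 1848, 1455 and 2075 in controls, 3168, 3356 and 3914 at 18 h, and 1468, 1573 and 1075 at 72 h. Each 18h-αGal mouse was above each other mouse. The log2 fold change was 0.97 ± 0.16 at 18 h (adjusted p = 0.00254) and -1.34 ± 0.16 from 18 h to 72 h (adjusted p = 0.000182). Cycs shared 22.8% of its sequence words with other genes, so its level is uncertain. The median log2 fold change of the 12 genes was 0.26 at 18 h, beside -0.03 over all genes, and without control replicate 3 the number called was 3.

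From 18 h to 72 h, 4 of these 12 genes fell and none rose, where 6.04% of all genes tested were called lower and 4.18% higher. Besides Cycs they were the 3 genes of the outer membrane channels, Vdac1 (-0.56 ± 0.12, adjusted p = 0.00699), Vdac2 (-0.56 ± 0.15, adjusted p = 0.0256) and Vdac3 (-0.52 ± 0.14, adjusted p = 0.0254). The calls of Cycs and Vdac1 held under all 14 alternative fits, while Vdac2 lost its call without 18h-αGal replicate 2 or 3 or 72h-αGal replicate 2 or 3 and Vdac3 without any 18h-αGal mouse or 72h-αGal replicate 1 or 3 (highest adjusted p 0.128 and 0.134), so that the number called was 2 without 18h-αGal replicate 2 or 3 or 72h-αGal replicate 3. Apaf1 and Casp9, which build the apoptosome, and the inhibitors Xiap, Birc2 and Birc3 were not called in either comparison. Between the times, Apaf1 (-0.50 ± 0.16, adjusted p = 0.0633) and Birc3 (0.51 ± 0.17, adjusted p = 0.0733) came near the threshold in edgeR's test. Casp6 did so too (-0.74 ± 0.24, adjusted p = 0.0778), and the groups did not overlap for any of them. Here 7 of the 12 genes had an unadjusted p under 0.05, as did 4593 of all 18933 genes tested. No gene of the 3 lists was called at 72 h against control by edgeR or DESeq2. In edgeR's test there, 2 of these 12 had an unadjusted p under 0.05, as did 1125 of all 18933 genes tested.

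A last list held 13 genes whose products bind or regulate BCL2 family members. At 18 h 2 of them were called higher and 1 lower, where 3.27% of all genes tested were called higher and 2.69% lower. Dynll1 and Dynll2, the dynein light chains that hold BIM and BMF, rose at 18 h by 0.69 ± 0.15 (adjusted p = 0.0147) and 0.48 ± 0.10 (adjusted p = 0.0140). Foxo3, a transcription factor known to act on Bcl2l11 and Bbc3, fell by 0.68 ± 0.13 (adjusted p = 0.00740), from 2523, 3000 and 2423 normalised counts in controls to 1485, 1532 and 1947 at 18 h. It stood at 2462, 2690 and 2353 at 72 h, within the control values or just below them. Trp53, which encodes p53, and Nfkb1, Rela and Ddit3 were not called in any comparison. From 18 h to 72 h, Foxo3 rose (0.61 ± 0.13, adjusted p = 0.00915) and 4 genes fell: Casp8, the protease that cleaves BID (-0.77 ± 0.16, adjusted p = 0.00684), Dynll1 (-0.64 ± 0.15), Dynll2 (-0.46 ± 0.10) and Stat3 (-0.52 ± 0.16, adjusted p = 0.0453). Of all genes tested, 4.18% were called higher and 6.04% lower in this comparison. Without 18h-αGal replicate 2 only Dynll2 of the 3 genes called at 18 h passed the test, and Dynll2 did not pass without control replicate 1, nor Dynll1 without control replicate 2. Between the times the call of Casp8 held under all 14 alternative fits and that of Stat3 under 5. Foxo3 lost its call there without 18h-αGal replicate 2, Dynll1 without that library or 72h-αGal replicate 1 or 2, and Dynll2 without 72h-αGal replicate 2 or 3 (highest adjusted p 0.0532, 0.0837 and 0.0622).

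**Figure D5:**
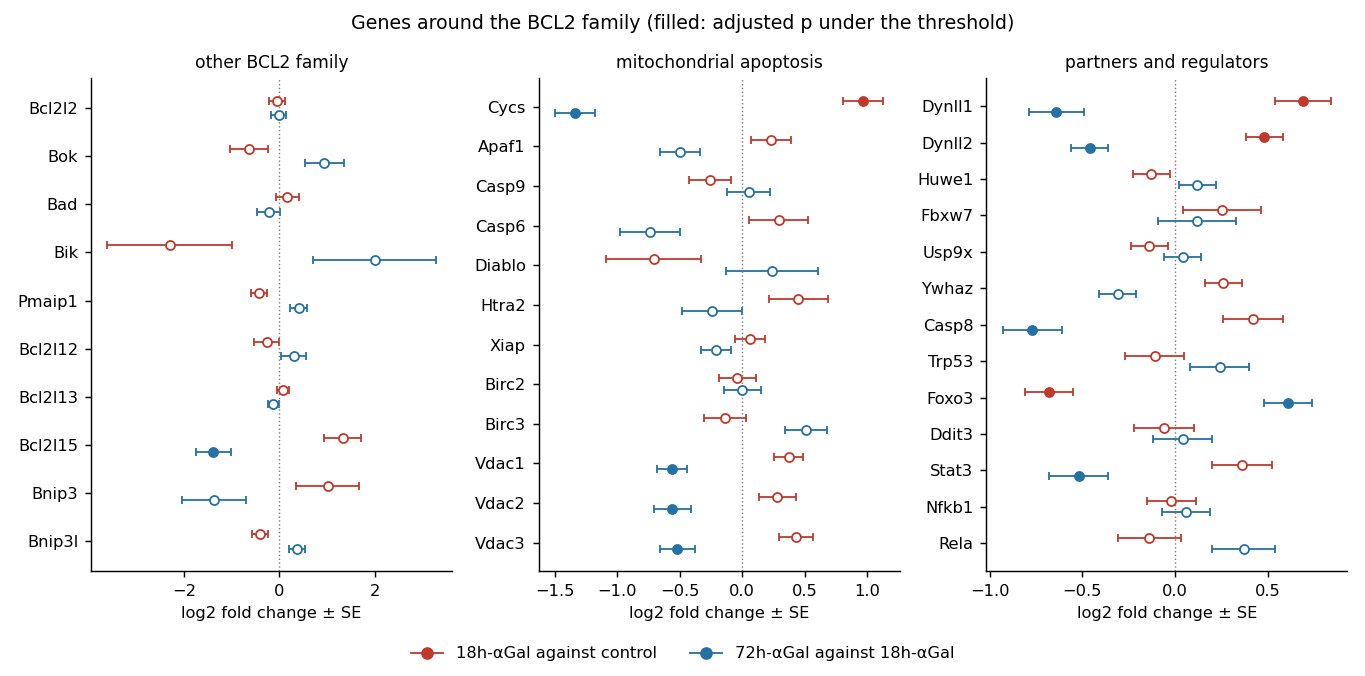
Log2 fold change with its SE for the tested genes of 3 lists around the BCL2 family, at 18 h against control (red) and from 18 h to 72 h (blue); filled points passed an adjusted p of 0.05 in edgeR's test. The points of Cycs (0.97 and -1.34) lie farthest from 0 among the filled ones of the middle panel, and no red point of the first panel is filled.

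To place Bcl2l11, the member with the smallest adjusted p at 18 h, its profile over the 9 libraries was compared with that of each tested gene by the root mean square difference of centred log2 CPM. Among the nearest were Acaa2 (0.095), an enzyme of mitochondrial fatty acid oxidation, Slc27a2 (0.135), a fatty acid transporter, the mitochondrial carrier gene Slc25a36 (0.145) and Atxn1 (0.155). The median over all genes was 0.663. Their log2 fold changes at 18 h lay between -0.95 (Acaa2) and -0.83 (Slc27a2), beside -1.08 for Bcl2l11. The nearest other member was Bbc3, at 0.354 and rank 828, and Bak1 (0.948) and Bax (0.932) were the most distant, farther than the median gene. This is a description over 9 libraries that share 3 groups.

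How far each member can be told from its neighbours in the genome differed. Mcl1, Bak1, Bcl2l1, Bmf and Bcl2l14 shared no sequence word of 50 bases with another annotated gene, and Bax shared 6.03% of its words, most of them with the overlapping Gm45808. On the other strand, Bak1 shared 437 exon bases with Ggnbp1, which had 22.0 to 82.8 normalised counts over all libraries, and Bcl2 shared 558 with D630008O14Rik, which had at most 7.64. These partners were small beside the members themselves, unlike Bcl2l13 beside Bid.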

How the data were processed

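The authors made strand-directional, ribosomal RNA-depleted libraries and mapped the reads with HISAT2. The submitters' processing notes also name featureCounts (Subread), DESeq2 1.42.0 and build GRCm38 (mm10), while the study's methods name GRCm39. The annotation release and strand setting are not given in the sources used here. The authors deposited a raw read count per gene and library, with at least 6 counts per gene over the 9 libraries. They also deposited a normalised signal, which equalled the count over the DESeq2 size factor (largest relative difference 5.9e-15). Of 29288 identifiers, 28480 matched GENCODE vM39.

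Raw counts were tested with edgeR 4.0.16 in R 4.3.3 (filterByExpr, TMM, robust quasi-likelihood fit of 3 group means over all 9 libraries, two-sided, Benjamini-Hochberg over 18933 genes). Genes were called at an adjusted p under 0.05, and the SE was taken from the F statistic. The procedure was tested on simulated data with 200 genes changed 4-fold between control and 18h-αGal, drawn at random from the tested genes whatever their level. It recovered 130 of them (65%) and made 5 false calls, so changes of that size can be missed. The share recovered at the levels of the members was not computed. Alternatives were DESeq2 1.42.0, its size factors in edgeR, no filter, only the 2 groups compared, a replicate block, each library left out, and a minimum size of the log2 fold change (1) beside the adjusted p. Intervals and p-values cover the spread between 3 mice per group, and reads were counted without molecular identifiers.

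Named were the 10 members, the genes of 3 lists that were called in a comparison or failed the filter, and genes among the 5 nearest in profile to the member with the smallest adjusted p at 18 h. Other names were added after their values were seen. The members and lists were chosen with earlier results of these data known. Replicate numbers recur in each group, but correlations of same-numbered libraries' deviations ran from -0.15 to 0.115, and the labels describe no pairing. Proteins were not compared, and some genes and motifs of the lists and searches are not reported here.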

Additional observations from a re-analysis of the deposited data

Results flagged for a closer look

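In all, 3 of 10 members differed in the direct test of 72h-αGal against 18h-αGal (edgeR, adjusted over all genes). That test called 10.2% of all genes tested. Both log2 fold changes against control use the same 18 h controls, so this test is that of the difference between them. Without PBS mice at 72 h, a difference between effects of αGalCer cannot be told apart from the time of sampling. Bak1 was 0.86 above control at 18 h and -0.22 from it at 72 h on the log2 scale, a difference of -1.08 ± 0.19 (SE, adjusted p = 0.00274), with all 3 mice at 72 h below all 3 at 18 h. Bcl2l11 was -1.08 from control at 18 h and -0.30 at 72 h, a difference of 0.78 ± 0.17 (adjusted p = 0.00849), with all 3 mice at 72 h above all 3 at 18 h. Bax was 0.83 above control at 18 h and -0.19 from it at 72 h, a difference of -1.01 ± 0.30 (adjusted p = 0.0464), with all 3 mice at 72 h below all 3 at 18 h but with a single 18h-αGal mouse, replicate 2, holding 393 normalised counts where the others held 191 and 200. The mice of the 2 times did not overlap for 32.8% of all genes tested. The call of Bax was lost under 8 of 14 alternative fits, while those of Bak1 and Bcl2l11 held under all 14. Controls were sampled at 18 h only, so a change of these genes with time in mice without αGalCer was not measured.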

How the results depend on the processing

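Of 420 values of single members under 14 alternative fits per comparison, 395 kept their direction and their side of the threshold, 9 lost a call, none gained one and 16 changed sign, all of them values that were not called. The number of members called at 18 h was 2, and it was 1 (Bcl2l11) when the log2 fold change also had to reach 1 in size and 1 to 2 with a library left out. At 72 h against control it was 0 under each alternative. Other BCL2 family genes called at 18 h numbered 0, but 1 by DESeq2, 1 without the filter on low counts and 0 to 1 with a library left out, and from 18 h to 72 h they numbered 1, or 0 to 1 with a library left out. With a library left out, mitochondrial genes called ran from 1 to 3 at 18 h (2 without the filter) and from 2 to 6 between the times, and partners and regulators from 1 to 4 at 18 h and from 2 to 6 between the times. Sign changes occurred only with a library left out, where the log2 fold change ran from -0.24 to 0.11 for Bcl2, -0.28 to 0.07 for Bid and -0.16 to 0.13 for Bcl2l14 at 18 h, from -0.36 to 0.12 for Bcl2 and -0.48 to 0.09 for Bmf at 72 h, and from -0.27 to 0.21 for Bcl2, -0.15 to 0.02 for Mcl1, -0.04 to 0.40 for Bmf and -0.28 to 0.02 for Bcl2l14 between the times. The cause of these changes was not tested. With the replicate block, 2, 0 and 2 members were called in the 3 comparisons in place of 2, 0 and 3, since Bax between the times was -0.97 with an adjusted p of 0.0945, mitochondrial genes called between the times numbered 2 in place of 4, and not every library correlated best with its own number. Over all genes 1128 were called at 18 h, against 1657 by DESeq2, 1527 without the filter, 781 with the replicate block and 593 from the 6 libraries of the 2 groups alone, and 489, 681 and 432 without control replicate 1, control replicate 2 and 18h-αGal replicate 2. Between the times 1936 were called, against 1371 with the block, 940 without 18h-αGal replicate 2, and 1108, 1194 and 831 without 72h-αGal replicates 1, 2 and 3. The smallest library had 64 counts of Bax and 76 of Bcl2.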
